A study of Mus musculus with 12 samples.

Results

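NFAT factors and calcineurin were followed here as a set of 10 genes, out of 11247 genes listed in the expression tables of a study of murine T helper cell polarization. The set was chosen by gene name and not by any measured value. It holds the calcium-regulated factors Nfatc1, Nfatc2, Nfatc3, and Nfatc4, the tonicity-regulated relative Nfat5, the catalytic calcineurin subunits Ppp3ca, Ppp3cb, and Ppp3cc, the calcineurin regulatory subunit Ppp3r1, and the calcineurin inhibitor Rcan1. RNA was sequenced from TCR-activated (Th0), T helper 17 (Th17), and induced regulatory T (iTreg) cells, with 4 libraries per group. All cells were naive CD4+CD62L+ T cells from the spleens of C57BL/6 mice aged 8 to 10 weeks, and all were activated for 3 days with plate-bound anti-CD3 and anti-CD28, at 1 µg/ml each. Th0 cultures received nothing further. Th17 cultures were also given 30 ng/ml IL6, 5 ng/ml TGFβ1, and neutralizing anti-IL4 and anti-IFNγ at 10 µg/ml each. For the iTreg cultures, which the sample labels call Treg, the labels state 10 ng/ml IL2 and 10 ng/ml TGFβ1, whereas the methods of the study state another TGFβ1 dose. The groups therefore differ from each other by several added factors at once, and the contribution of single cytokines cannot be told apart. All cultures are mixtures in which not every cell need have polarized.

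When the T cell receptor is engaged, calcium enters the cell and binds calmodulin, which activates the phosphatase calcineurin. Calcineurin removes phosphates from the 4 calcium-regulated NFAT proteins, which then enter the nucleus and bind DNA, often together with AP-1, at cytokine and activation genes. Calcineurin is a dimer of a catalytic A subunit (Ppp3ca, Ppp3cb, or Ppp3cc) and a calcium-binding B subunit (Ppp3r1), and it is the target of cyclosporin A and tacrolimus. Nfat5 shares the DNA-binding domain but lacks the calcineurin docking region and responds to osmotic stress. Rcan1 binds calcineurin and inhibits it, and one of its transcripts is itself induced by NFAT. NFAT activity is thus controlled largely by phosphorylation and location in the cell, and the values given here are mRNA levels only.

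In the GENCODE annotation of GRCm38 (mm10), Nfatc2 lies at chr2:168476410-168601657 on the minus strand, Nfatc4 at chr14:55823144-55833943 and Nfatc3 at chr8:106058840-106130537 on the plus strand. Nfat5 lies at chr8:107293470-107379517 and Ppp3ca at chr3:136670124-136937727, both on the plus strand, and Rcan1 at chr16:92391953-92470867 on the minus strand. The tables give 1 value per gene, and isoforms are not told apart. The core motif bound by NFAT is GGAAA, and a common AP-1 motif is TGANTCA. Of the 10 members, 7 had promoter windows in the RefSeq promoter table of GRCm38.p6, with 10 windows in all, and Nfatc1, Ppp3ca, and Ppp3cc did not. The 250 bases before a start site are printed for Nfatc2, whose mRNA was higher in Th17 and iTreg cells, for Nfatc4, which was higher in iTreg cells, and for the internal start of Rcan1. The Nfatc4 window also lies inside the annotated gene, downstream of the gene start given above. All sequences are written 5′ to 3′ on the strand of the gene, with GGAAA, or TTTCC where it lies on the opposite strand, in capitals.
Nfatc2, chr2:168601658-168601907, minus strand: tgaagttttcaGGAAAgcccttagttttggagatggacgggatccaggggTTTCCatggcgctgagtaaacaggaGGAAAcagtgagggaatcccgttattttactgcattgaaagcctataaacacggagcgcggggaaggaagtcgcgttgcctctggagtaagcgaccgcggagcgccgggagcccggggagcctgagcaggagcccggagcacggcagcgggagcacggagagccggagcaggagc
Nfatc4, chr14:55824545-55824794, plus strand: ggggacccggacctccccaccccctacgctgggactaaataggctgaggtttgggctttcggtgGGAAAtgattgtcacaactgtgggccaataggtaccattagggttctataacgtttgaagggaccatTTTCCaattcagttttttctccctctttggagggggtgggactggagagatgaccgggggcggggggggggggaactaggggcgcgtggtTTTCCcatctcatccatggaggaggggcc
Rcan1, chr16:92400079-92400328, minus strand: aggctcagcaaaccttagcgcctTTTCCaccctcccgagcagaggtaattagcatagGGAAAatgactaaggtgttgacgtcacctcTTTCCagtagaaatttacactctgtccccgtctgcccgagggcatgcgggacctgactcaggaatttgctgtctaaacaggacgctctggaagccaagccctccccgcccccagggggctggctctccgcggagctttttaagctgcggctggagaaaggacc
Each of these windows held 3 GGAAA matches, counted on both strands, and the Rcan1 window also held 1 match to TGANTCA. For comparison, 55.6% of all 32851 promoter windows of this length held GGAAA, with a median of 1 match, and 6.75% held TGANTCA. The upstream start of Rcan1 had no GGAAA, nor had the window of Ppp3r1. Among the other members, Nfat5 had 2 matches, Ppp3cb had 3, a second Nfatc2 start had 1, and the Nfatc3 starts had 1 and 0. No binding was measured, and the matches are a description of the letters in these windows.

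Expression is given in FPKM as deposited, a density of sequenced fragments corrected for transcript length and for library size. Levels of different genes on this scale are therefore per unit of transcript length. The authors provided a table for Th17 against Th0 and another for iTreg against Th0, and the same 4 Th0 libraries stand in both, with values 1.01 times as high in the Th17 table. Because the tables were scaled separately and share their controls, each group was tested against Th0 within its own table, and the 2 comparisons are not independent. Libraries are named by their column headings, which begin with M22, M29, M42, or M43 in every group. The sample titles number the experiments, with every group in each, but the headings do not carry these numbers. The main fit therefore did not pair the libraries. Differences were tested with limma on log2(FPKM + 1) across all genes that exceeded 1 FPKM in 4 or more libraries of a table, and a gene was called at an adjusted p (Benjamini-Hochberg) below 0.05. Relative sequencing depth, read from the steps between low FPKM values, was 0.825 to 1.19 times that of the median library.

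Il17f, a Th17 cytokine, averaged 0.124 FPKM in Th0 and 482 FPKM in Th17 libraries. It was not restricted to Th17 cells, with 26.9 to 99.2 FPKM in iTreg libraries (mean 57.6). Foxp3, the factor that defines regulatory T cells, averaged 4.84 FPKM in Th0 and 75.2 FPKM in iTreg libraries. It was below 5 FPKM in 3 of the Th17 libraries but reached 42.5 FPKM in Th17 library M43, and the Th17 calls of members and the counts of pathway lists are therefore also given without that library. T cell markers were abundant, with summed levels of 858 to 2023 FPKM in the Th17 table and 940 to 2005 FPKM in the iTreg table over 7 of 8 genes listed. Cd4 itself fell from 208 ± 89.6 to 68.1 ± 24.5 FPKM in Th17 libraries (log2 difference -1.54, adjusted p = 0.038), a call lost without Th17 library M43 (adjusted p = 0.055), and its part in the Th17 results was not tested. Of 26 markers of CD8 T cells, B cells, NK cells, myeloid cells, erythroid cells, and platelets, 6 were listed in the Th17 table and 5 in the iTreg table. The only one of them above 16 FPKM in any library was Nkg7, a cytotoxic granule gene, which ranged from 6.58 to 58.8 FPKM in Th0, from 0.301 to 3.28 FPKM in Th17, and from 25.1 to 53.5 FPKM in iTreg libraries. The myeloid marker Cd68 ranged from 3.22 to 4.90 FPKM in Th0 and from 5.46 to 15.9 FPKM in Th17 libraries (log2 difference 0.88, adjusted p = 0.055). A fit with the beginning of the heading as a block, which called 37.8% of all tested genes, called it higher (adjusted p = 0.019). Cd68 ranged from 2.61 to 7.19 FPKM in iTreg libraries. The parts of Nkg7 and Cd68 were not tested either, and in bulk RNA a change in the number of cells of a type and in RNA per cell cannot be told apart.

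**Figure D1:**
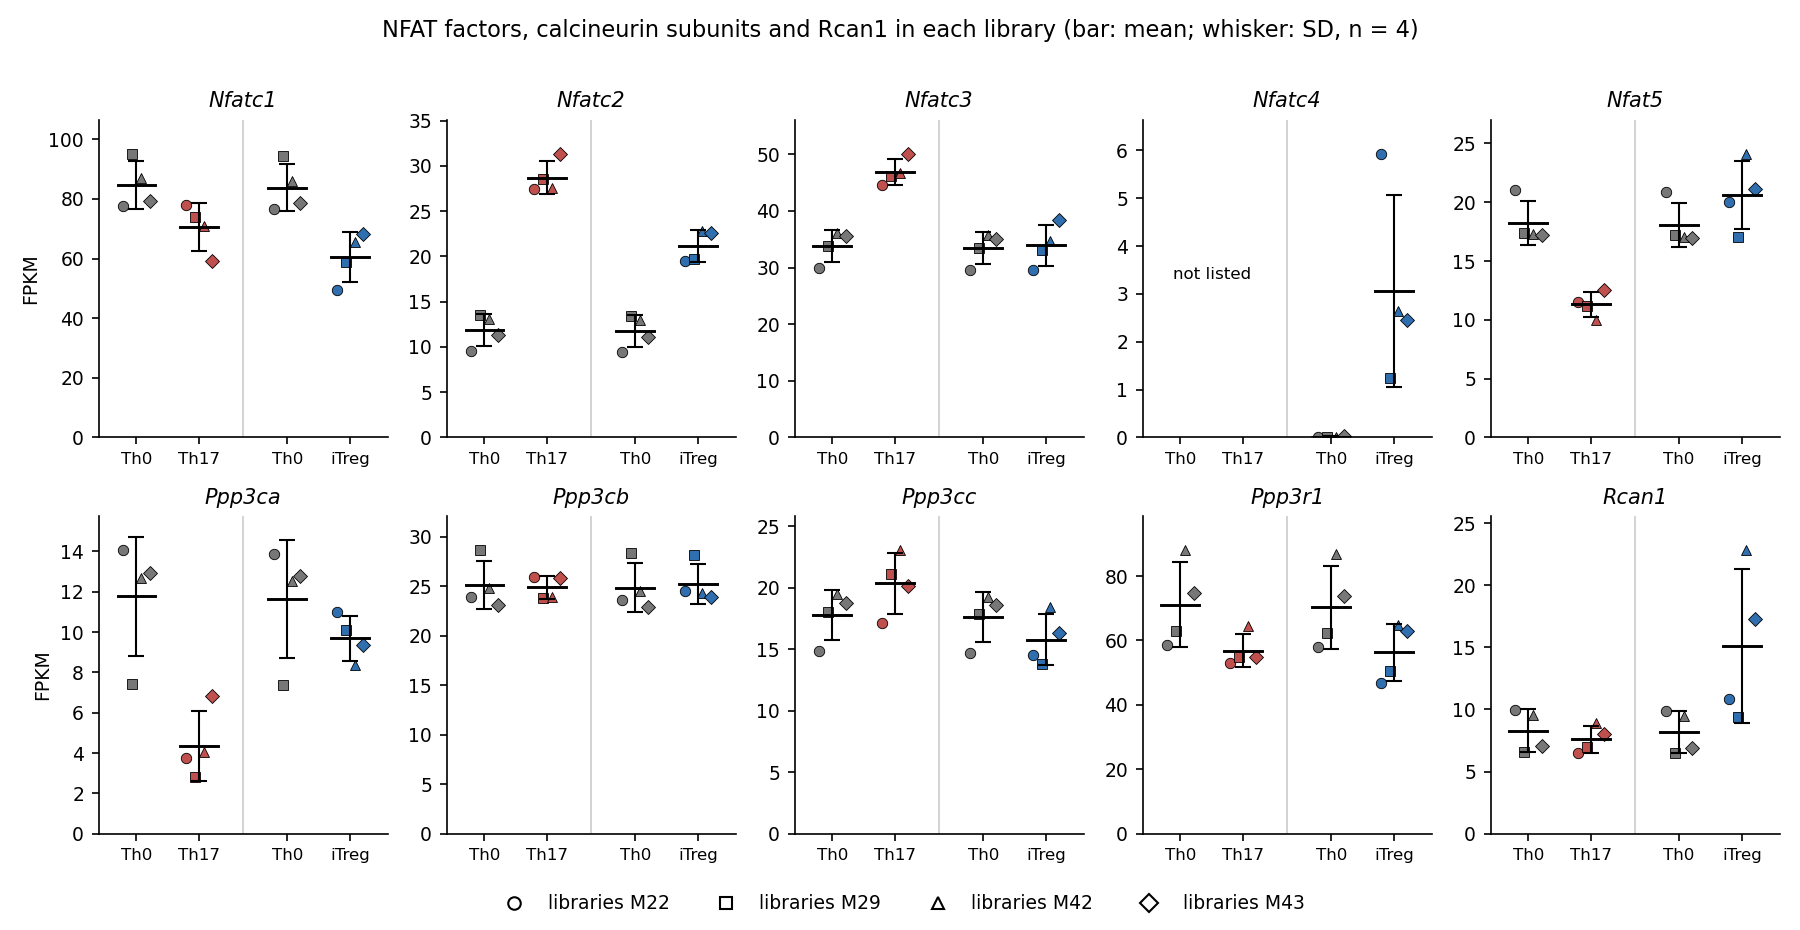
FPKM of each member in each library. Points are libraries, with shapes for the beginning of the column heading, and bars and whiskers are mean and SD of 4 libraries. Nfatc2 lay between 27.4 and 31.3 FPKM in Th17 libraries and between 19.5 and 22.8 FPKM in iTreg libraries, above all Th0 libraries, and Nfatc4 was at or near 0 in Th0.

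In Th0 cells the members spanned a wide range of levels. Nfatc1 (84.7 ± 8.00 FPKM, SD, n = 4) and Ppp3r1 (71.1 ± 13.2) were highest, and their libraries overlapped. Nfatc3 followed at 33.9 ± 2.80 FPKM and Ppp3cb at 25.1 ± 2.44 FPKM, each separate from its neighbours in the order. Nfat5 (18.2 ± 1.90) and Ppp3cc (17.8 ± 2.05) overlapped each other. Nfatc2 (11.9 ± 1.80), Ppp3ca (11.8 ± 2.96), and Rcan1 (8.28 ± 1.73) formed a lower overlapping group. Nfatc4 was listed at 0 in 3 Th0 libraries of the iTreg table and at 0.026 FPKM in the remaining one. The order of the calcium-regulated factors, Nfatc1 above Nfatc3 above Nfatc2, was the same in Th17 and iTreg libraries.

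To find out how the calcineurin-NFAT genes differ in Th17 cells, the 4 Th17 libraries were compared with Th0. Nfatc4 was not listed in this table, from which the authors had removed genes with low CPM. Of the other 9 members, 4 were called, when 19.3% of 10269 tested genes were called in either direction. Nfatc2 and Nfatc3 rose (10.6% of all tested genes rose), and Nfat5 and Ppp3ca fell (8.69% fell). These same 4 members had groups without overlap, which was so for 23.8% of tested genes. The median difference of the 9 members was -0.10 on the log2 scale, beside -0.00071 for all tested genes.

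Nfatc2, the factor also known as NFAT1 that is present in resting T cells, had 9.58, 13.5, 13.1, and 11.3 FPKM in Th0 libraries M22, M29, M42, and M43. The corresponding Th17 values were 27.4, 28.5, 27.6, and 31.3 FPKM. Every Th17 library lay above every Th0 library, and the lowest Th17 value exceeded the highest Th0 value by a wide margin. The mean rose from 11.9 ± 1.80 to 28.7 ± 1.80 FPKM, a 2.42-fold difference of means, with a log2 difference of 1.22 (SE 0.12, adjusted p = 2.3e-04). The exact two-sided permutation p was 0.029, the smallest that 4 libraries against 4 can give. Nfatc3, also known as NFAT4, had 29.9, 33.8, 36.2, and 35.5 FPKM in Th0 and 44.6, 46.1, 46.6, and 50.1 FPKM in Th17 libraries, in the same order of headings. The groups did not overlap, and the change was smaller than that of Nfatc2, from 33.9 ± 2.80 to 46.9 ± 2.30 FPKM (log2 difference 0.46, SE 0.10, adjusted p = 0.012).

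Nfatc1, also known as NFAT2, which activated T cells induce through an autoregulatory loop, had 77.5, 95.1, 86.9, and 79.4 FPKM in Th0 and 78.0, 74.0, 70.8, and 59.1 FPKM in Th17 libraries. The M22 libraries were level with each other, and the other 3 Th17 libraries were lower than their Th0 counterparts. The groups overlapped, and the log2 difference of -0.26 (SE 0.12, adjusted p = 0.17) was not called, with a 95% interval from -0.54 to 0.0083. Nfat5 had 21.1, 17.4, 17.3, and 17.2 FPKM in Th0 and 11.6, 11.2, 10.0, and 12.6 FPKM in Th17 libraries. All Th17 libraries were below all Th0 libraries. The mean fell from 18.2 ± 1.90 to 11.3 ± 1.06 FPKM (log2 difference -0.64, SE 0.11, adjusted p = 0.0042).

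Among the calcineurin subunits, Ppp3ca, which encodes the catalytic Aα subunit, moved furthest. It had 14.1, 7.43, 12.7, and 12.9 FPKM in Th0 and 3.74, 2.79, 4.05, and 6.83 FPKM in Th17 libraries. The M29 Th0 library was low among the Th0 libraries and the M43 Th17 library high among the Th17 libraries, and the groups still did not overlap. The mean fell from 11.8 ± 2.96 to 4.36 ± 1.74 FPKM, 2.70 times lower, with a log2 difference of -1.27 (SE 0.25, adjusted p = 0.0084). Ppp3cb, the Aβ subunit, averaged 25.1 ± 2.44 FPKM in Th0 and 24.9 ± 1.19 FPKM in Th17 libraries, and its log2 difference of -0.01 had a 95% interval from -0.24 to 0.22. Ppp3cc, the Aγ subunit, averaged 17.8 ± 2.05 and 20.4 ± 2.46 FPKM. Its log2 difference of 0.18 (adjusted p = 0.36) had a 95% interval from -0.10 to 0.47.

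Ppp3r1, the regulatory subunit, had 58.7, 62.9, 88.0, and 74.7 FPKM in Th0 and 53.1, 54.9, 64.5, and 54.9 FPKM in Th17 libraries. Each Th17 library was below the Th0 library with the same beginning of its heading, but the groups overlapped. The log2 difference was -0.30 (SE 0.14, adjusted p = 0.18). In a fit with the beginning of the heading as a block, it was called lower (adjusted p = 0.040), one of 5 members called under that fit, which called 37.8% of all tested genes. In the GENCODE annotation of GRCm38, 14.3% of the exonic bases of Ppp3r1 also lie in exons of Wdr92. Per the study's methods, reads were counted without strand and in union mode. How reads in the shared bases entered the FPKM is not known. Rcan1 averaged 8.28 ± 1.73 FPKM in Th0 and 7.61 ± 1.08 FPKM in Th17 libraries (log2 difference -0.10, adjusted p = 0.71, 95% interval from -0.45 to 0.26).

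Without Th17 library M43, which stood apart by its Foxp3 level, the same 4 members were called in the same directions. Over all genes, 1691 of 10355 were called in that fit. The log2 differences were then 1.18 for Nfatc2, 0.43 for Nfatc3, -0.69 for Nfat5, and -1.47 for Ppp3ca. This library also had the lowest Nfatc1 and the highest Nfatc2, Nfatc3, Nfat5, and Ppp3ca values of the Th17 group.

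The comparison of iTreg with Th0 cells called 3 of 10 members, when 16.6% of 10208 tested genes were called in either direction. Nfatc2 and Nfatc4 rose (8.36% of all tested genes rose), and Nfatc1 fell (8.21% fell). The same 3 members had groups without overlap, as had 22.8% of tested genes. The median difference of the 10 members was 0.02 on the log2 scale, beside 0.01 for all tested genes. Nfatc4 passed the filter on low values only through the iTreg libraries, in which it is high. Of 138 tested genes that passed through a single group, 135 were called, so that the call of Nfatc4 was largely fixed by the filter. Its groups could not overlap under that filter either, and neither its call nor its lack of overlap is counted as evidence. Without genes that passed through a single group, 2 of 9 members were called, 1 higher and 1 lower, beside 15.5% of the 10070 genes left.

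Nfatc4, also known as NFAT3 and best known from tissues other than lymphocytes, was listed at 0 in Th0 libraries M22, M29, and M42 and at 0.026 FPKM in M43. In iTreg libraries with the same headings it had 5.93, 1.23, 2.65, and 2.45 FPKM. All iTreg libraries were above all Th0 libraries, and the M22 iTreg library was the highest. The mean of the iTreg libraries was 3.06 ± 2.01 FPKM, and the log2(FPKM + 1) difference was 1.89 (SE 0.29), given here as a description. It depends on the value added before the logarithm and was 4.69 when 0.1 was added in place of 1, so that no fold is given. Nfatc4 remained the least abundant of the 10 members in iTreg libraries.

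Nfatc2 had 9.47, 13.4, 12.9, and 11.1 FPKM in Th0 and 19.5, 19.8, 22.8, and 22.5 FPKM in iTreg libraries. The groups did not overlap. The mean rose 1.80-fold from 11.7 ± 1.79 to 21.2 ± 1.77 FPKM (log2 difference 0.81, SE 0.12, adjusted p = 0.0029). Nfatc1 had 76.6, 94.3, 85.9, and 78.5 FPKM in Th0 and 49.6, 58.8, 65.4, and 68.2 FPKM in iTreg libraries. All iTreg libraries lay below the Th0 libraries, although the highest iTreg and the lowest Th0 value were close together. The mean fell from 83.8 ± 8.03 to 60.5 ± 8.29 FPKM (log2 difference -0.47, SE 0.13, adjusted p = 0.034). The Nfatc1 call was lost when any 1 of 6 libraries was left out, namely Th0 library M22, M29, M42, or M43 or iTreg library M22 or M29, with adjusted p up to 0.082 and log2 differences from -0.38 to -0.51. Over all genes, 1155 to 1569 were called in these fits, in place of 1691. With the beginning of the heading as a block, Nfatc1 stayed called (SE 0.095, adjusted p = 0.0088), in a fit that called 40.9% of all tested genes.

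The other factors were not called in iTreg cells. Nfatc3 had 29.6, 33.5, 35.8, and 35.1 FPKM in Th0 and 29.6, 33.0, 34.7, and 38.4 FPKM in iTreg libraries, and the groups spanned nearly the same range. Its log2 difference of 0.02 had a 95% interval from -0.23 to 0.26, and the sign of this difference turned with the scaling of the libraries. Nfat5 averaged 18.0 ± 1.87 and 20.6 ± 2.91 FPKM (log2 difference 0.18, adjusted p = 0.39, 95% interval from -0.10 to 0.46).

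Rcan1 had 9.85, 6.53, 9.45, and 6.94 FPKM in Th0 and 10.8, 9.43, 22.8, and 17.3 FPKM in iTreg libraries. Every iTreg library was above the Th0 library with the same heading, by widely differing amounts, and the M29 iTreg value lay within the Th0 range. The means were 8.19 ± 1.70 and 15.1 ± 6.19 FPKM, with a log2 difference of 0.75 (SE 0.27, adjusted p = 0.094) that was not called. It was called higher with the heading as a block (adjusted p = 0.021) and without iTreg library M29 (log2 difference 0.93, adjusted p = 0.046). Ppp3r1 had 58.0, 62.3, 87.0, and 73.8 FPKM in Th0 and 47.0, 50.5, 64.8, and 63.0 FPKM in iTreg libraries, again lower in each library than in its Th0 counterpart. Its log2 difference of -0.31 (SE 0.16, adjusted p = 0.24) was called only with the block (adjusted p = 0.011). The block fit called 5 members, Nfatc4 among them, and 40.9% of all tested genes in this comparison.

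The catalytic subunits were not called in iTreg cells. Ppp3ca had 13.9, 7.36, 12.5, and 12.8 FPKM in Th0 and 11.0, 10.1, 8.34, and 9.37 FPKM in iTreg libraries, and these overlapped. Its log2 difference was -0.21 (adjusted p = 0.51, 95% interval from -0.63 to 0.21). Ppp3cb averaged 24.9 ± 2.45 and 25.2 ± 1.99 FPKM (95% interval of the log2 difference from -0.21 to 0.25). Ppp3cc averaged 17.6 ± 2.03 and 15.8 ± 2.07 FPKM (log2 difference -0.15, adjusted p = 0.47, 95% interval from -0.43 to 0.13).

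**Figure D2:**
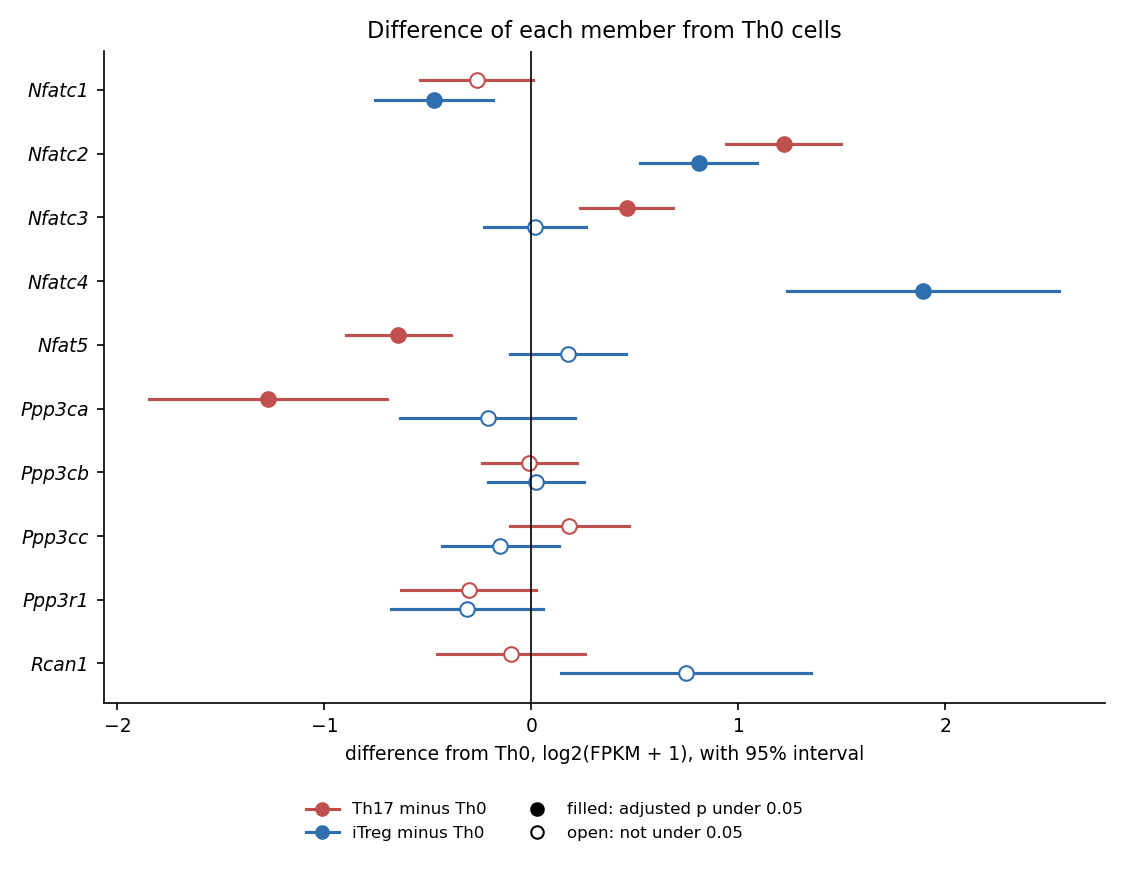
Difference of each member from Th0 on the log2(FPKM + 1) scale, with its 95% interval from limma, for Th17 (red) and iTreg (blue) cells. Filled points were called at an adjusted p below 0.05, which for Nfatc4 the filter on low values largely fixed. Nfatc2 lay above 0 in both comparisons (1.22 and 0.81), and Ppp3ca at -1.27 and -0.21. Both comparisons use the same Th0 libraries.

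Because a ratio of genes within a library does not depend on how the library was scaled, the make-up of the NFAT mRNA can be set side by side over all 12 libraries. It is built from the values tested above and was given no test of its own. The ratio of Nfatc1 to Nfatc2 FPKM was 8.09, 7.05, 6.64, and 7.05 in Th0 libraries M22, M29, M42, and M43. It was 2.84, 2.59, 2.57, and 1.89 in the Th17 libraries and 2.54, 2.98, 2.86, and 3.03 in the iTreg libraries. All polarized libraries had ratios below those of all Th0 libraries, and the Th17 and iTreg ranges overlapped each other.

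Of the summed FPKM of the calcium-regulated factors, Nfatc1 made up 64.9% ± 1.86 (SD, n = 4) in Th0, 48.2% ± 4.27 in Th17, and 50.9% ± 2.33 in iTreg libraries. Nfatc2 made up 9.05% ± 0.64, 19.7% ± 1.77, and 17.9% ± 0.67. Nfatc3 made up 26.0% ± 1.84, 32.1% ± 2.53, and 28.6% ± 0.77, and Nfatc4 2.68% ± 2.03 in iTreg libraries. Nfatc1 was thus the most abundant NFAT mRNA in each group, with a smaller share in polarized cells. The sum itself was 130 ± 11.2 FPKM in Th0 and 146 ± 4.26 FPKM in Th17 libraries of the Th17 table, with overlapping ranges, and 129 ± 11.2 and 119 ± 12.2 FPKM in the iTreg table. Of the summed catalytic calcineurin FPKM, Ppp3ca made up 21.5% ± 5.51 in Th0, 8.68% ± 3.01 in Th17, and 19.1% ± 2.31 in iTreg libraries. Its highest share in a Th17 library, 12.9% in M43, was below its lowest share in a Th0 library, 13.7% in M29. The sum of the catalytic subunits was 54.7 ± 1.76 FPKM in Th0 and 49.6 ± 2.80 FPKM in Th17 libraries of the Th17 table, and 54.1 ± 1.72 and 50.7 ± 1.15 FPKM in Th0 and iTreg libraries of the iTreg table. The ranges did not overlap in either table, but narrowly so in both. The highest Th17 and the lowest Th0 sum were both 52.8 FPKM, and the highest iTreg sum was 52.1 beside a lowest Th0 sum of 52.2 FPKM. Among single tested genes, 23.8% and 22.8% had groups without overlap. Unlike the shares, these sums depend on how the libraries were scaled, and they were not tested.

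**Figure D3:**
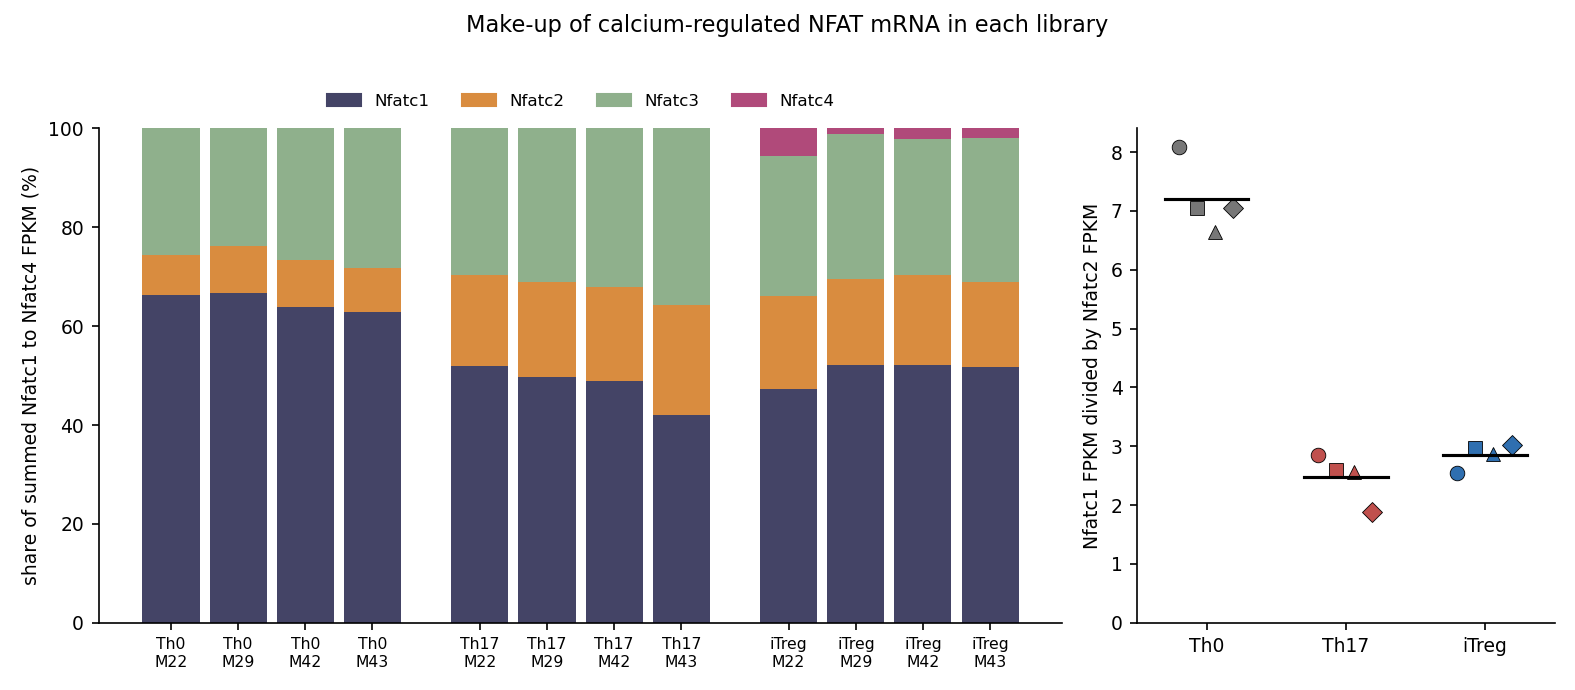
Left, share in percent of each calcium-regulated NFAT gene in their summed FPKM, 1 bar per library, with Th0 as in the Th17 table, in which Nfatc4 is not listed. Right, Nfatc1 FPKM divided by Nfatc2 FPKM in each library (points) and the group mean (line). The ratio lay between 6.64 and 8.09 in Th0, 1.89 and 2.84 in Th17, and 2.54 and 3.03 in iTreg libraries.

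Among the 3 genes whose levels followed Nfatc2 most closely over the 8 libraries of the Th17 table were Gmfb and Sesn3. Their root-mean-square distance from Nfatc2, on log2(FPKM + 1) centred on the mean of each gene, was 0.13 for each. Gmfb, an actin regulator, averaged 33.6 FPKM in Th0 and 76.2 FPKM in Th17 libraries, and Sesn3, a stress-induced regulator of mTORC1, 49.3 and 114 FPKM.

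To place the members in their pathway, 78 further genes in 6 lists were counted in the same fits. Of these, 60 were tested against Th0 in Th17 cells and 19 were called, 10 higher and 9 lower (31.7%, beside 19.3% of all tested genes). In iTreg cells 61 were tested and 16 called, 6 higher and 10 lower (26.2%, beside 16.6%). With the heading as a block the counts were 33 and 35, under a fit that called 37.8% and 40.9% of all tested genes. The iTreg count fell to 9 without Th0 library M22 or iTreg library M22, and to 10 without iTreg library M29 or M42. The iTreg calls over all tested genes also fell in these fits, from 1691 to 1210, 1155, 1500, and 1385, in that order. Without Th17 library M43 the Th17 count was 17, 8 higher and 9 lower. Over all 10355 genes tested in that fit, 1691 were called, in place of 1983. Il21 in the Th17 table and Sgk1 in both tables passed the filter on low values only through the polarized libraries. Like Nfatc4, they are described without a test, and without them 17 of 58 genes were called in Th17 and 15 of 60 in iTreg cells. Of all tested genes, 17.9% and 15.5% were called once those that passed through a single group were left out.

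Genes of calcium entry and TCR signalling were all listed, and 5 of 18 were called in Th17 cells (27.8%, beside 19.3% of all tested genes). With the block 8 were called, when that fit called 37.8% of all tested genes. Atp2b4, a plasma membrane pump that exports calcium, rose from 2.69 ± 1.00 to 28.2 ± 12.2 FPKM (log2 difference 2.93, SE 0.33, adjusted p = 4.0e-04). Orai1, the pore of the store-operated calcium channel, fell from 60.9 ± 8.30 to 26.3 ± 3.53 FPKM (log2 difference -1.18, SE 0.14, adjusted p = 4.8e-04). Kcna3, the potassium channel Kv1.3 that sustains the driving force for calcium entry, fell from 35.7 ± 10.4 to 10.8 ± 4.76 FPKM, and Itpr3, an inositol trisphosphate receptor that releases stored calcium, rose from 11.0 ± 3.63 to 35.3 ± 16.0 FPKM (adjusted p = 0.0054 and 0.016). The fifth called gene was Plcg1, the phospholipase upstream of that receptor (log2 difference 0.66, adjusted p = 0.020), which is named outside the naming rule. In iTreg cells 3 of 18 were called (16.7%, close to the 16.6% of all tested genes). The block called 11 there, 3 higher and 8 lower, when it called 40.9% of all tested genes. Kcna3 fell from 35.3 ± 10.4 to 4.34 ± 1.29 FPKM (log2 difference -2.75, adjusted p = 1.3e-04), Atp2b4 rose from 2.66 ± 0.99 to 10.7 ± 3.49 FPKM (log2 difference 1.67, adjusted p = 0.0041), and Orai1 fell from 60.2 ± 8.17 to 42.6 ± 3.10 FPKM (log2 difference -0.48, adjusted p = 0.023).

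Calcineurin inhibitors and binding proteins, of which 6 of 9 were tested, had no call in Th17 cells and 2 in iTreg cells (33.3%). The shares of all tested genes were 19.3% and 16.6%. Rcan3, a relative of Rcan1, rose from 18.9 ± 2.56 to 35.8 ± 11.0 FPKM in iTreg libraries (log2 difference 0.85, adjusted p = 0.027). Fkbp1a, the protein through which tacrolimus inhibits calcineurin, rose from 208 ± 36.8 to 284 ± 7.33 FPKM (log2 difference 0.46, adjusted p = 0.047). In Th17 cells the differences were 0.12 and 0.18, with adjusted p of 0.70 and 0.56, and limma called 0 of the 6 genes. At an unadjusted p below 0.05 the count was also 0, and with the block, which called 37.8% of all tested genes, 1 was called, lower.

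All 10 genes for NFAT kinases and nuclear export were tested. With 2 called in Th17 cells (20% beside 19.3%) and 1 in iTreg cells (10% beside 16.6%), the list stayed near or below the share of all tested genes. With the block 4 and 3 were called, beside 37.8% and 40.9% of all tested genes. In Th17 cells Dyrk1b and Csnk1e, members of kinase families that phosphorylate NFAT proteins, rose (log2 difference 0.87 and 0.46, adjusted p = 0.013 and 0.049). In iTreg cells Dyrk1a, a kinase that counteracts calcineurin on NFAT, fell from 21.0 ± 1.19 to 16.0 ± 1.67 FPKM (log2 difference -0.38, adjusted p = 0.034). Of the NFAT anchors and cofactors, 5 of 8 were tested and 2 were called in each comparison. That was 40%, beside 19.3% of all tested genes in Th17 and 16.6% in iTreg cells. Homer3, a scaffold protein that can hold NFAT back from calcineurin, rose by 0.73 on the log2 scale in Th17 cells (adjusted p = 0.034, or 0.063 without Th17 library M43) and by 0.87 in iTreg cells (adjusted p = 0.011). Nfatc2ip, a protein that binds Nfatc2 and promotes cytokine expression, had log2 differences of -0.61 (adjusted p = 0.018) and -0.46 (adjusted p = 0.035).

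The list of NFAT-dependent genes held 23 cytokines, receptors, and activation genes, of which 16 were tested in each comparison. In Th17 cells 3, Il21 among them, were called higher and 6 lower (56.2% called, beside 19.3% of all tested genes). Without Il21, 8 of 15 genes were called, beside 17.9% of tested genes without those that passed the filter through a single group. The median log2 difference of the list was -0.43, beside -0.00071 for all tested genes. Il21, a cytokine that Th17 cells secrete, went from 0.11 ± 0.05 to 74.1 ± 13.5 FPKM (log2 difference 6.07, given as a description). Fasl, the death receptor ligand, fell from 12.2 ± 2.66 to 0.57 ± 0.51 FPKM (log2 difference -3.10, adjusted p = 4.9e-05). It exceeded 1 FPKM in all 4 Th0 libraries but in only 1 Th17 library. The size of its difference therefore depends on the value added before the logarithm. Egr3, a transcription factor induced by receptor signals, fell from 63.5 ± 12.0 to 14.5 ± 2.89 FPKM, and Tnfrsf9, the costimulatory receptor 4-1BB, from 115 ± 44.0 to 17.3 ± 3.34 FPKM (adjusted p = 1.0e-04 and 2.6e-04).

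In iTreg cells 1 of the 16 genes rose and 5 fell (37.5% called, beside 16.6% of all tested genes). With the block 12 were called, beside 40.9% of all tested genes. The median log2 difference of the list was -0.50, beside 0.01. Egr3 fell from 62.8 ± 11.8 to 22.2 ± 2.12 FPKM (log2 difference -1.45, adjusted p = 3.0e-04), and Il2, the T cell growth factor, from 37.6 ± 15.4 to 2.43 ± 1.21 FPKM (log2 difference -3.47, adjusted p = 3.5e-04). Cblb, a ubiquitin ligase that restrains T cell activation, fell from 35.1 ± 6.89 to 15.5 ± 3.03 FPKM (adjusted p = 0.0029). The gene that rose was Il2ra, the high-affinity IL2 receptor chain CD25, from 133 ± 43.9 to 442 ± 112 FPKM (log2 difference 1.76, adjusted p = 0.0030). Most of these genes also answer to other factors than NFAT. IL2 had been added to the iTreg cultures, and its part in these changes was not tested. In Th17 libraries, whose cultures received no IL2, Il2 fell from 38.1 ± 15.6 to 4.05 ± 1.18 FPKM (adjusted p = 3.0e-04). Il2ra rose there from 134 ± 44.5 to 287 ± 95.7 FPKM (adjusted p = 0.029, or 0.064 without Th17 library M43). Both are named for Th17 cells outside the naming rule.

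Of the osmotic genes linked to Nfat5, Sgk1, a salt-induced kinase, went from 0.59 ± 0.20 to 18.0 ± 17.2 FPKM in Th17 libraries (log2 difference 3.21, or 2.68 without Th17 library M43) and from 0.59 ± 0.20 to 10.9 ± 2.41 FPKM in iTreg libraries (log2 difference 2.90). None of the other 4 genes tested in Th17 cells was called by limma. With the block, which called 37.8% of all tested genes, 3 of them were called. These were Slc5a3, the myo-inositol transporter (log2 difference -0.55, adjusted p = 0.14, block adjusted p = 0.020), Slc38a2, an amino acid transporter (0.58, adjusted p = 0.36, block adjusted p = 0.016), and Hspa4l, a chaperone induced by hypertonicity (-0.28, adjusted p = 0.21, block adjusted p = 0.046). In iTreg cells 1 of the other 5 genes was called, when 16.6% of all tested genes were. This was Hspa4l, which fell from 30.9 ± 5.85 to 21.3 ± 2.34 FPKM (log2 difference -0.51, adjusted p = 0.042). Slc38a2 was called there only with the block (log2 difference 0.30, adjusted p = 0.71, block adjusted p = 0.015).

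**Figure D4:**
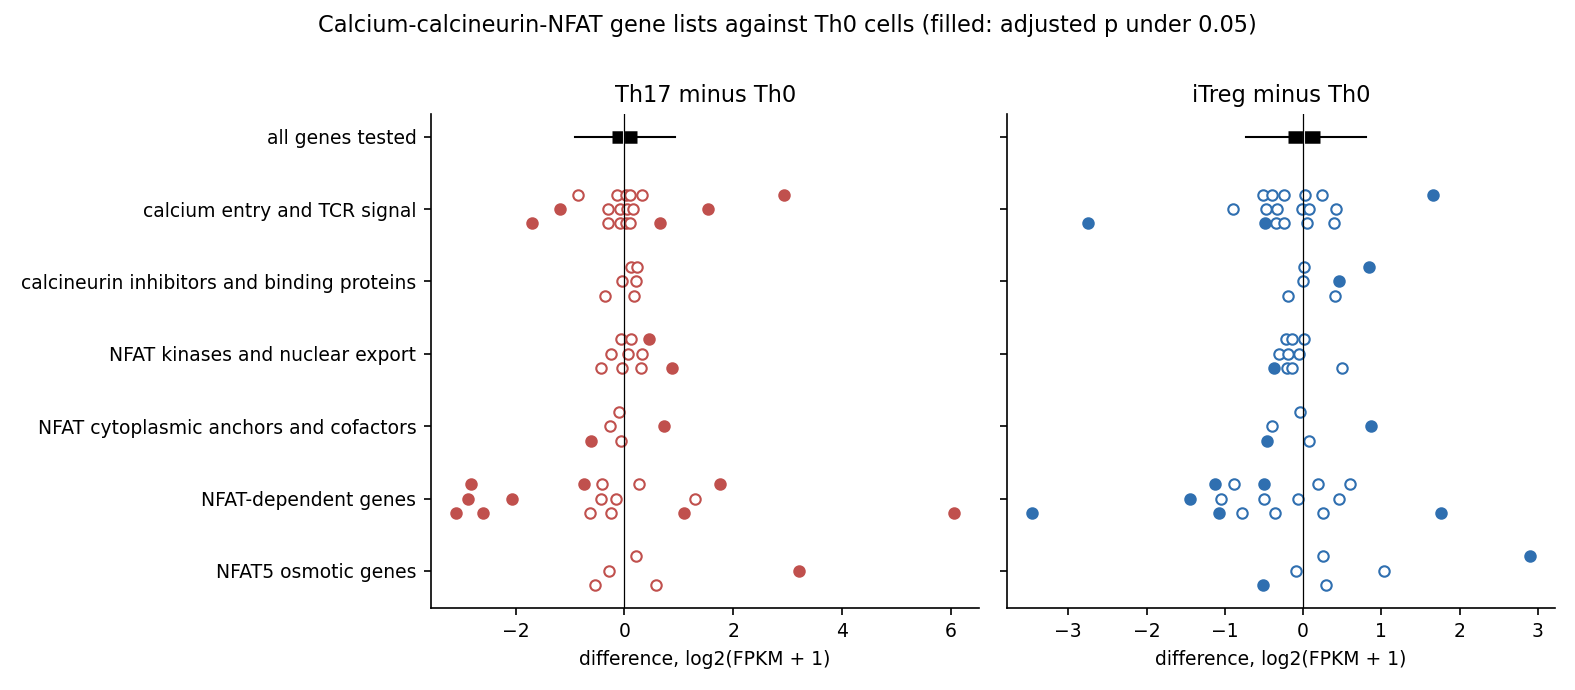
Differences from Th0 on the log2(FPKM + 1) scale for the tested genes of 6 pathway lists, in Th17 (left) and iTreg (right) cells. Points are genes, filled where called, and the bar on top spans the quartiles, the line the central 90%, and the gap the median of all tested genes. The NFAT-dependent genes ran from Fasl at -3.10 to Il21 at 6.07 in Th17 cells, where Il21 is shown as a description only. Fasl exceeded 1 FPKM in only 1 Th17 library, and its difference depends on the value added before the logarithm. In iTreg cells they ran from Il2 at -3.47 to Il2ra at 1.76.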

How the data were processed

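FPKM values of 12 libraries, 4 independent cultures per group, were analysed. Per the labels and the study's methods, the authors aligned reads to mm10 with TopHat2 2.0.14, counted exon reads with HTSeq without strand, removed genes of low CPM, and compared groups pair-wise with edgeR. The authors deposited FPKM values in 2 separately scaled tables. The sources used here give neither how FPKM was calculated nor the annotation. The tables also hold the authors' log2 fold changes, average CPM, likelihood ratios, p-values, and FDR, none of which was used.

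Of 11077 and 11056 listed genes, 10269 (Th17) and 10208 (iTreg) exceeded 1 FPKM in 4 or more of 8 libraries. They were tested with limma 3.58.1 in R 4.3.3 on log2(FPKM + 1), without trend, which understates changes of low genes. Medians, shares, and exact permutations used Python 3.11.15, numpy 2.4.6, scipy 1.17.1, and pandas 2.3.3, and plots matplotlib 3.10.9. The fit was tested on simulated data. Counts were not in the tables, so no counting intervals were calculated, and p-values measure the spread between these libraries.

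The sample titles number the experiments, and each experiment gave a library of every group. The column headings give no experiment number, so the main fit was unpaired, and its standard errors and p-values do not use this pairing. Libraries with headings that begin alike formed the replicate block of an alternative fit. Such libraries deviated together, with correlations of 0.450 to 0.784 (Th17) and 0.662 to 0.769 (iTreg), against -0.590 to 0.434 and -0.576 to 0.248 for the others. Other alternatives changed the pseudocount, filter, scaling, trend, threshold, or the libraries included. Counts without genes that passed the filter through 1 group only were added after the data had been seen. Members, gene lists, and the naming rule (all members, up to 4 called genes per list and comparison by smallest adjusted p, and the 3 genes most like Nfatc2) were chosen with earlier results of these data known. Coordinates and exon overlaps are from GENCODE vM21 (GRCm38), and promoter sequences from RefSeq (GRCm38.p6). A gene that the naming rule takes and a lineage marker are not reported here.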

Additional observations from a re-analysis of the deposited data

Results flagged for a closer look

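In 4 of 29 groups examined, the most extreme library of a member stood apart from the remaining 3 by more than Dixon's criterion allows, a test that flags about 1 in 20 groups by chance. Th0 groups were examined once, in the Th17 table where the gene was listed there. Nfat5 was 21.1 FPKM in the M22 Th0 library of the Th17 table, where the other Th0 libraries lay between 17.2 and 17.4 FPKM. The same library stood apart in the iTreg table, at 20.8 FPKM. Ppp3r1 was 64.5 FPKM in the M42 Th17 library, above 53.1 to 54.9 FPKM in the others. Nfatc4 was 0.026 FPKM in the M43 Th0 library of the iTreg table and listed at 0 in the others, a case in which any value above 0 meets the criterion. Ppp3cb was 28.2 FPKM in the M29 iTreg library, above 23.9 to 24.5 FPKM in the others. The Nfat5 call in Th17 cells was kept without any single library.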

How the results depend on the processing

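Of 322 member differences under all alternatives, 300 kept their direction and side of the threshold, 8 were no longer called, 4 became called, and 10 changed sign. The members called in Th17 cells numbered 4 to 4 with each library left out, and those in iTreg cells 2 to 3, always with Nfatc4 among them. With the replicate block the iTreg members called rose from 3 to 5, with Nfatc4 in both counts. The pathway genes called rose from 19 to 33 (Th17) and from 16 to 35 (iTreg). Over all genes the block called 3882 in place of 1983 in Th17 and 4170 in place of 1691 in iTreg cells. The block changed no member's call but those of Ppp3r1 in both comparisons and Rcan1 in iTreg cells. At an FDR of 0.01 the pathway counts were 11 and 7, the counts over all genes 995 and 778, and the calls of Nfatc3 in Th17 and Nfatc1 in iTreg cells were lost. With each library left out the pathway counts ranged from 13 to 18 in Th17 and from 9 to 14 in iTreg cells. The counts over all genes ranged from 1384 to 2271 and from 1155 to 1569 in the same fits. Sign changes touched only differences that were not called. For Nfatc3 in iTreg cells the difference was -0.0043 after median centring and -0.027 after quantile normalization, and -0.042 to 0.078 with libraries left out. For Ppp3cb it ranged from -0.047 to 0.052 in Th17 and from -0.031 to 0.085 in iTreg cells. A filter of more than 5 FPKM left Nfatc4 untested. The depth in reads is unknown, and values of Nfatc4 in Th0 near 0 cannot be told from absence.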
